A study of Saccharomyces cerevisiae with 6 samples.

Results

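The genes described here are 10 general stress genes of budding yeast (Saccharomyces cerevisiae) that are neither chaperones nor genes of storage sugars: DDR2, HOR7, DDR48, XBP1, USV1, PNC1, DCS2, TFS1, RTN2 and OM45. They were found by gene symbol in the platform annotation of the array, where 11 probe sets name exactly 1 of them, out of 9335 probe sets and 5656 named genes. DDR48 has 2 probe sets and each of the others has 1. Transcript levels were measured on 6 Affymetrix arrays, and the study set out to compare growth with azinomycin B at 100 and 10 µg/ml with control growth. Azinomycin B is a natural product that cross-links DNA, and the annotations give 10 µg/ml as its median effective dose in yeast. Cultures were shaken at 250 rpm and 30 °C in the rich glucose medium YPD until their optical density was 1.0. The 3 controls then grew on for 6 h, while 2 cultures received 100 µg/ml and 1 culture received 10 µg/ml in a little ethanol for the same time. The labels mention no ethanol in the controls and name no strain or mating type. Each control shares a label, A100, B100 or 10, with 1 treated array. The 4 arrays labelled A100 or B100 are called the 100-series below, and the 2 arrays labelled 10 the 10-series. Nothing in the labels states that each array had a culture of its own, and the p-values therefore cover the spread of these arrays alone, which may be technical.

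Yeast answers many unrelated stresses, and slow growth itself, with 1 shared programme of transcription. The zinc finger activators Msn2 and Msn4 drive most of it. Protein kinase A holds both out of the nucleus while glucose is plentiful, and the kinases Rim15 and Yak1 act on the opposite side. Genes of the programme therefore rise as a rich culture uses up its glucose, while genes for making ribosomes fall. Among the 10 genes, DDR2 and HOR7 encode very small related proteins of unknown function, and DDR48 encodes a hydrophilic stress protein first found among DNA damage-responsive transcripts. XBP1 and USV1 encode transcription factors, of which Xbp1 is a repressor of cell cycle genes. PNC1 encodes the nicotinamidase of NAD salvage, DCS2 a relative of the scavenger decapping enzyme Dcs1, and TFS1 an inhibitor of carboxypeptidase Y. RTN2 encodes a reticulon-like protein of the endoplasmic reticulum and OM45 a protein of the mitochondrial outer membrane.

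The values are MAS5 signals, 1 per probe set on a linear scale. Median signals were between 111.5 and 142.9 on the 6 arrays. The highest signal was 20106.3, 28213.5 and 21816.0 on the A100, B100 and 10 controls. On the treated arrays of those labels it was lower, at 15073.8, 17425.5 and 15833.8. Over the 6956 probe sets tested the correlation of the A100 control with the B100 control was 0.980, while the control of the 10-series had r = 0.903 and 0.910 with them. Fold changes are on the log2(signal + 16) scale, and limma (moderated tests with Benjamini-Hochberg adjustment over the 6956 probe sets, threshold 0.05) was used throughout. All 11 probe sets of the 10 genes passed the filter on low signals.

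No member passed a test of treatment with azinomycin B, and the members differed in direction and size between pairs, from -4.40 for DCS2 in the A100 pair to 0.70 for USV1 in the 10 pair (log2; the second DDR48 probe set, described below, aside). On the A100 pair all 10 members had a lower signal in the treated array than in its control, where 48.2% of all tested probe sets did. DDR48 is an exception on its other probe set. Over all tested probe sets the treated A100 array was also less like its control (r = 0.906) than the treated B100 (0.979) and 10 (0.970) arrays were like theirs. In RNA from whole cultures, a lower level in every cell and a loss from some of the cells cannot be told apart. In the B100 pair 7 members were lower (43.2% of all) and in the 10 pair 6 (42.1% of all). The median difference of the members was -0.48, -0.10 and -0.13 (log2) in the A100, B100 and 10 pairs, while that of all tested probe sets was 0.03, 0.06 and 0.08. DDR2, HOR7, PNC1, TFS1 and OM45 were lower in all 3 pairs, which is 5 of 10 members where 12.2% of all probe sets were. These 5 are also the members with the highest mean control signals, from 5188 for OM45 to 13693 for DDR2. The next was DDR48 at 3957. The 12.2% is not taken from probe sets of like signal, and the part of signal level in the count was not tested. The count depends on the scaling of the arrays: it was 7 of 10 after scaling to a common median and 0 of 10 after quantile normalization. After quantile normalization the members that were lower numbered 9, 4 and 4 in the A100, B100 and 10 pairs, and their medians were -0.39, 0.05 and 0.03. After median scaling they numbered 10, 9 and 8, with medians of -0.70, -0.27 and -0.28, where the medians of all probe sets also moved, to -0.18, -0.09 and -0.06.

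**Figure D1:**
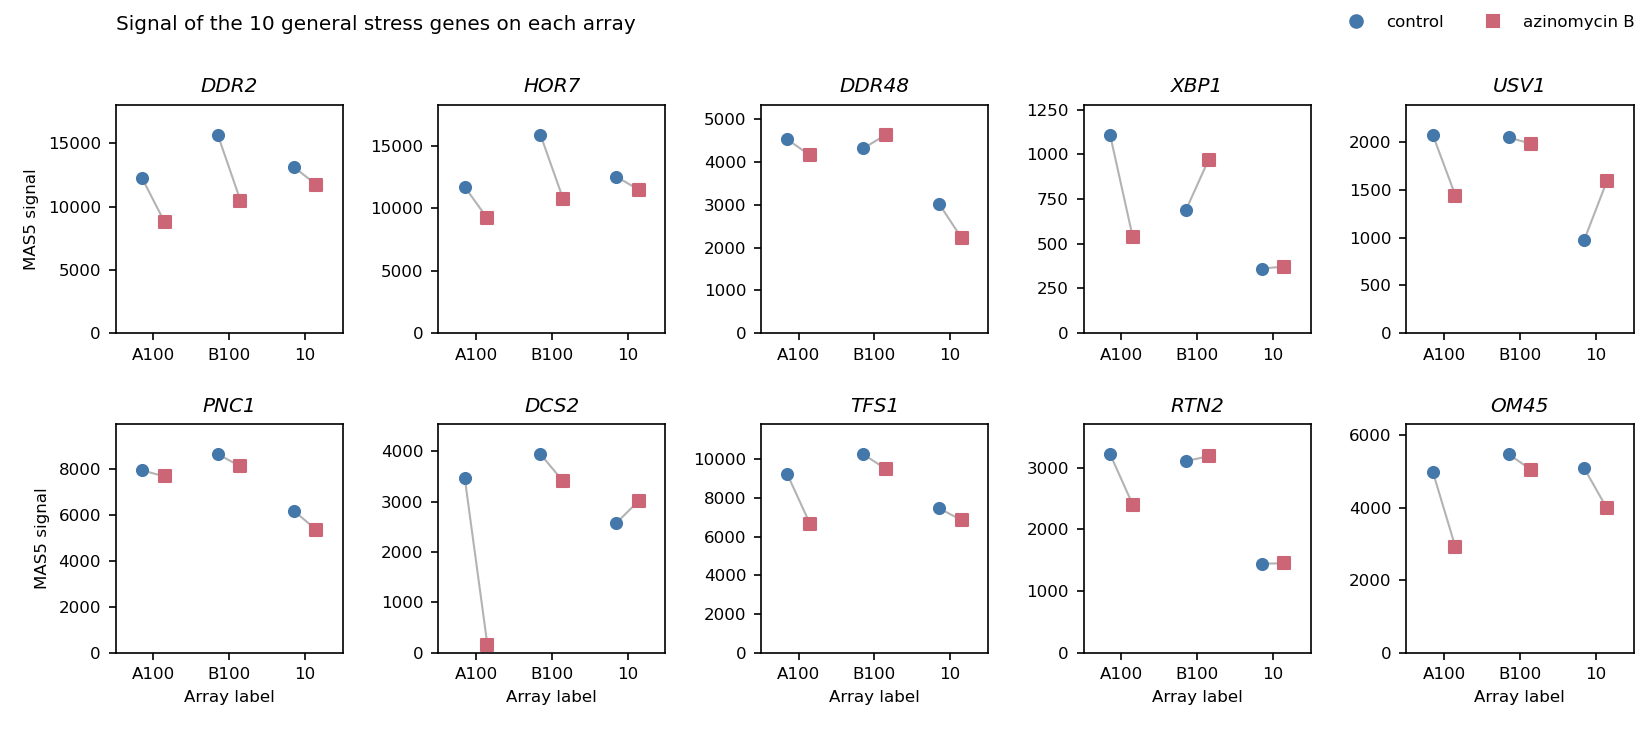
MAS5 signal (linear, from 0) of each of the 10 genes, with 1 point per array: control as a blue circle and azinomycin B as a red square, joined within each label (A100 and B100 at 100 µg/ml, 10 at 10 µg/ml). RTN2 and XBP1 lie lower on both arrays of the 10-series than on any other, DDR2 and HOR7 are highest on the B100 control, and DCS2 is at 149.3 on the treated A100 array alone.

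The related genes DDR2 and HOR7 were the members whose 100 µg/ml arrays lay apart from all controls. DDR2 had signals of 12258.4, 15676.4 and 13143.8 on the A100, B100 and 10 controls, 8747.4 and 10474.2 on the treated A100 and B100 arrays and 11735.7 on the array of the lower dose. Every treated array was thus under every control. HOR7 had 11706.6, 15875.1 and 12530.0 on these controls, 9177.2 and 10733.5 on the treated A100 and B100 arrays and 11466.9 on that of the lower dose, in the same order of groups. Both 100 µg/ml arrays lay below all 3 controls for these 2 of 10 members, and for 7.58% of all tested probe sets. The difference at 100 µg/ml was -0.51 for DDR2 (SE 0.222, 95% interval -1.04 to 0.03, limma adjusted p = 0.957) and -0.42 for HOR7 (SE 0.231, -0.97 to 0.14, limma adjusted p = 0.957). Neither passed, and no probe set of the array passed in this comparison, where limma gave 232 at an unadjusted p under 0.05 (3.34%).

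Over all 3 pairs, with a term for the series, DDR2 differed by -0.41 (SE 0.187) and HOR7 by -0.35 (SE 0.191), with limma adjusted p = 0.585 for both. After quantile normalization these values were -0.13 for DDR2 and -0.001 for HOR7. DDR2 and HOR7 have the highest mean control signals of the members (13693 and 13371). The maximum signal was lower on every treated array (15073.8 to 17425.5) than on every control (20106.3 to 28213.5). The part of this in their differences was not tested. The B100 control, where both are highest, is also the array with the highest maximum signal. Without that array the differences over the pairs were -0.27 for DDR2 and -0.19 for HOR7. DDR2 and HOR7 followed each other from array to array (r = 0.982 over 6 arrays, a description, since arrays share a label and a series), and neither passed the test between the series: the 100-series minus the 10-series was -0.11 for DDR2 (95% interval -0.58 to 0.36) and -0.04 for HOR7 (-0.52 to 0.44).

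DDR48 gave readings that differed between its probe sets. On the one with the higher mean signal, whose suffix s marks probes that related transcripts can share, the A100, B100 and 10 controls had 4525.9, 4316.3 and 3028.9. The treated A100, B100 and 10 arrays had 4154.1, 4636.3 and 2221.1. All 4 arrays of the 100-series were above both arrays of the 10-series, and within pairs the differences were small (-0.12, 0.10 and -0.45 for A100, B100 and 10). The other probe set had 1993.2, 1680.1 and 1649.8 on the controls and 6330.1, 1605.7 and 814.0 on the treated arrays. It was therefore 3.18 times its control in the A100 pair and 0.493 times in the 10 pair, where the first probe set had 0.918 and 0.733 times. The treatment difference over the 3 pairs was -0.16 (SE 0.182) on the first and 0.20 (SE 0.560) on the second, and neither passed (limma adjusted p = 0.755 and 0.903). The sign of the treatment difference of DDR48 thus depends on the probe set.

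Of the transcription factors, XBP1 had signals of 1110.1, 687.5 and 361.1 on the A100, B100 and 10 controls and 536.5, 969.8 and 372.6 on the treated arrays of those labels. The pairs disagree in direction: XBP1 was 1.03 lower (log2 difference -1.03) in the A100 pair, 0.49 higher in the B100 pair and 0.04 higher in the 10 pair. All 4 arrays of the 100-series lay above both arrays of the 10-series. USV1 had 2076.2, 2048.2 and 976.0 on the controls and 1437.5, 1981.9 and 1593.9 on the treated arrays. It had the largest gain of the members in the 10 pair, 1.63 times its control (log2 difference 0.70), while the A100 pair showed 0.692 times and the B100 pair 0.968 times. The difference between the series in the effect of treatment was -0.98 for USV1 (SE 0.441, 95% interval -2.09 to 0.12) and did not pass (limma adjusted p = 0.966), nor did any probe set in that test (234 at an unadjusted p under 0.05, 3.36%).

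PNC1 and TFS1 varied little. PNC1 had 7939.7, 8644.3 and 6184.2 on the A100, B100 and 10 controls and 7669.9, 8108.7 and 5351.5 on the treated arrays, so that the 4 arrays of the 100-series again lay above both of the 10-series. Its treatment difference was -0.12 (SE 0.158, 95% interval -0.49 to 0.26). The difference turned to 0.10 after quantile normalization. TFS1 had 9226.2, 10276.6 and 7475.2 on the controls and 6651.5, 9504.6 and 6856.1 when treated, a treatment difference of -0.24 (SE 0.193, -0.69 to 0.22). The lowest TFS1 signal was on the treated A100 array and the ranges of treated and control arrays overlapped. TFS1 varied least among the 10 genes, with the highest signal 1.54 times the lowest.

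DCS2 was set apart by 1 array. Its signals were 3473.8, 3943.1 and 2572.7 on the A100, B100 and 10 controls, 3401.7 on the treated B100 array and 3017.9 at 10 µg/ml, but 149.3 on the treated A100 array. The A100 pair differed by -4.40 (log2), the fifth lowest value of the 6956 probe sets, where 6.12% were at least 2-fold lower. The B100 and 10 pairs differed by -0.21 and 0.23. The difference at 100 µg/ml was -2.13 (SE 1.14, limma adjusted p = 0.957), and it was 0.05 once the treated A100 array was dropped. The DCS2 probe set has the number 8375, and its neighbour by number, 8376, which is for the Mediator subunit gene MED4, had 4.7 on the treated A100 array and 287.2 on its control, against 376.1 and 366.9 in the B100 pair. The next numbers on either side, for YRM1 and ALE1, had 81.4 against 82.6 and 290.5 against 339.1 in the A100 pair. Of the 748 tested probe sets numbered 7600 to 8500, 5.48% were at least 4-fold lower on the treated A100 array than on its control, against 0.596% of the 6208 others. In the B100 and 10 pairs 0 of these 748 were. The range was chosen after the values were seen, so this contrast is fixed in part by that choice and is a description. USV1, numbered 7974, also lies in this range. The part of the range in either gene's value was not tested, and the DCS2 value is given here as that of 1 array.

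**Figure D2:**
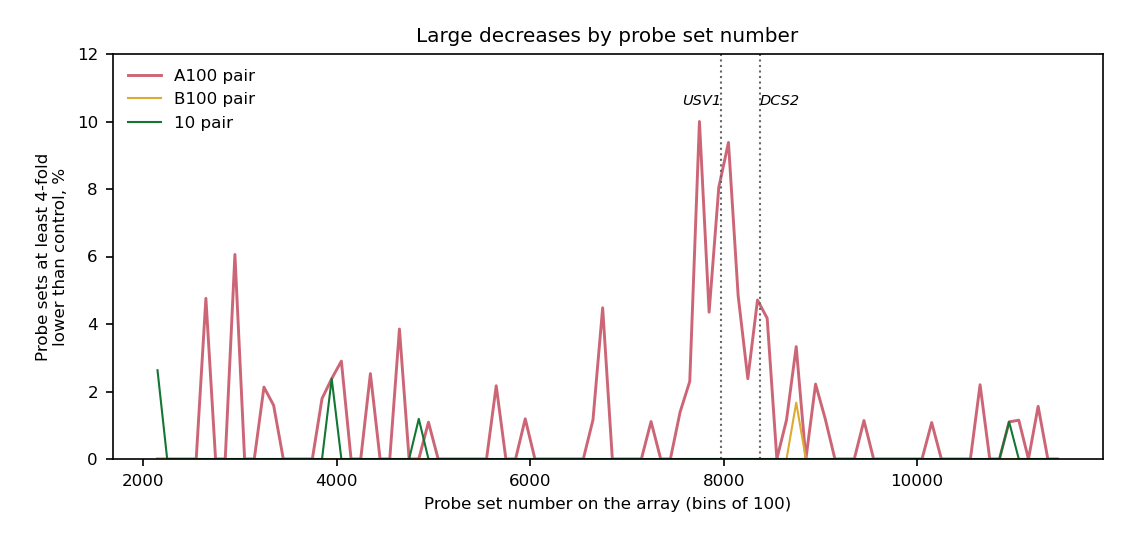
Percentage of tested probe sets at least 4-fold lower in the treated array than in the control of the same label, in bins of 100 by probe set number, with a line for each pair. The A100 pair has its highest values between 7600 and 8500, with 10% in the bin from 7700, and the dotted lines mark the numbers of USV1 and DCS2.

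The membrane protein genes differed from each other. RTN2 had 3221.9, 3109.1 and 1443.0 on the A100, B100 and 10 controls and 2398.7, 3188.0 and 1448.7 on the treated arrays. Treated and control values were nearly equal in the B100 pair (1.02 times the control) and the 10 pair (1.00 times), and lower in the A100 pair (0.745 times), while the levels of the series did not overlap. OM45 had 4997.0, 5479.3 and 5086.5 on the controls and 2905.2, 5046.0 and 3978.9 when treated. It was the member with the most even controls, at 5188 ± 257 (SD, n = 3), and it was lower in all 3 pairs, by -0.78, -0.12 and -0.35 (log2). The treatment difference of OM45 was -0.42 (SE 0.236, 95% interval -0.97 to 0.14), it did not pass (limma adjusted p = 0.585), and it was -0.34 after quantile normalization. Once the treated A100 array was dropped, the difference of OM45 at 100 µg/ml went from -0.44 to -0.04.

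**Figure D3:**
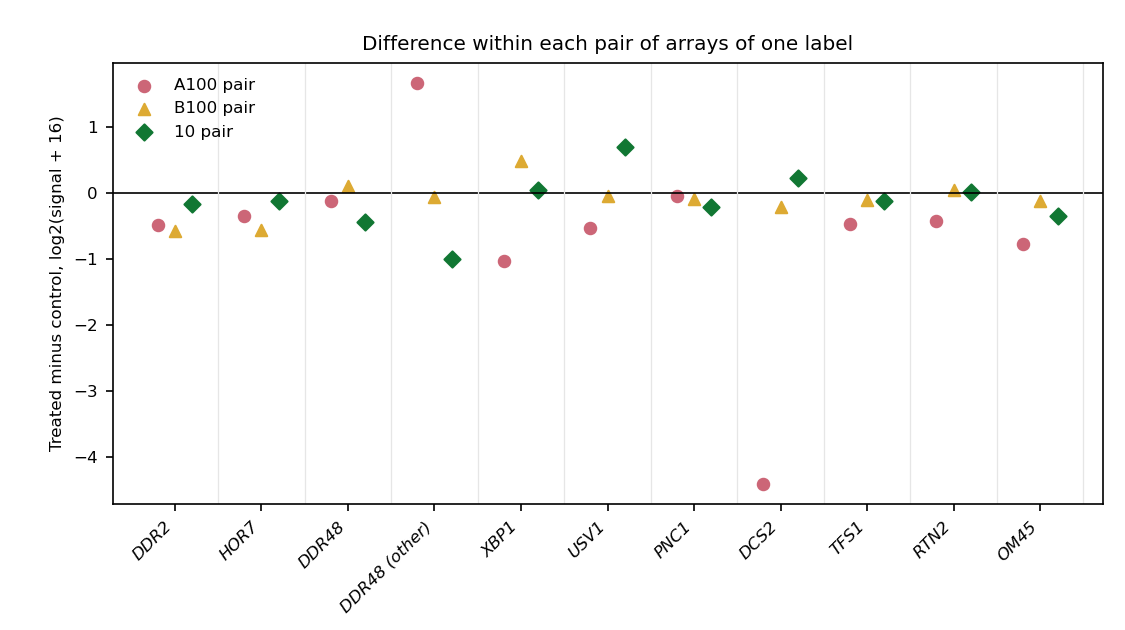
Treated minus control of the same label on the log2(signal + 16) scale, for each gene and both probe sets of DDR48 (the second marked "other"), with 1 point per pair. The points of DDR2, HOR7, PNC1, TFS1 and OM45 all lie below 0, while DCS2 at -4.40 and the other DDR48 probe set at 1.66 stand out in the A100 pair.

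Over the 3 pairs no member passed the test of treatment, with limma adjusted p between 0.585 and 0.961, and no probe set passed (524 at an unadjusted p under 0.05, 7.53%). Against all 3 controls, 5 members had a positive and 5 a negative difference at 100 µg/ml. The positive ones (DDR48, RTN2, XBP1, PNC1 and USV1, between 0.07 and 0.18) were all negative against the A100 and B100 controls alone, between -0.29 and -0.01, so that no member was then higher. At 10 µg/ml, set against all 3 controls, all 10 members were lower, led by DDR48 (-0.81, SE 0.347, limma adjusted p = 0.761), whereas 6 were lower against the control of the 10-series. No probe set passed at 10 µg/ml either (291 at an unadjusted p under 0.05, 4.18%). Simulated arrays were given the spread left in these data after terms for series and treatment, and no difference between the series. In them 2-fold changes were recovered in 0% of cases at 100 µg/ml and in 18% over the 3 pairs. For 4-fold changes this was 97% and 99.5%. The test at 100 µg/ml has no series term, so these shares can be too high for it where the series differ. Changes of the sizes seen for these genes, DCS2 aside, were thus mostly not detectable with 6 arrays.

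Between the series RTN2 passed the test and the other members did not. RTN2 was higher in the 100-series than in the 10-series by 1.02 (log2 difference, SE 0.202, 95% interval 0.55 to 1.502), which passed with limma adjusted p = 0.0282. As 1 of 10 members passed and 10.4% of all probe sets did (5.18% with higher values), the share of members that passed is near that of all probe sets. At an unadjusted p under 0.05 there were 4 members, all of them higher, and 30.4% of all probe sets. Of the 6956 probe sets, 1015 were higher and 1097 lower at that threshold. XBP1 (1.08, SE 0.316, limma adjusted p = 0.0710), DDR48 (0.76, SE 0.193, limma adjusted p = 0.0508) and PNC1 (0.49, SE 0.168, limma adjusted p = 0.104) did not pass. In these 3 and RTN2 all 4 arrays of the 100-series lay above both of the 10-series, 4 of 10 members where 18.9% of all probe sets did so. As the members were chosen with earlier results of these data known, their counts in every comparison here are a description. USV1 (0.57, SE 0.278), TFS1 (0.30, SE 0.205) and DCS2 (-0.75, SE 1.13) overlapped between the series. OM45 was at -0.01 (95% interval -0.60 to 0.58), near the values of DDR2 and HOR7 given above. In all 6 members were higher and 4 lower in the 100-series, and their median difference was 0.39, against -0.02 for all tested probe sets.

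The value of RTN2 was stable while its call was not. With 1 array left out at a time its difference stayed between 0.93 and 1.13, and the call held without the treated A100 array (limma adjusted p = 0.00187). It was lost without the A100 control (limma adjusted p = 0.126), the B100 control (0.0967), the treated B100 array (0.0682), the control of the 10-series (0.260) or its treated array (0.141). Without the treated A100 array 5 members passed: RTN2 (1.13), XBP1 (1.28), DDR48 on its first probe set (0.76), USV1 (0.74) and PNC1 (0.50). Of all probe sets 29.2% passed in that fit, and 12.9% with higher values. The members with every 100-series array above both 10-series arrays then numbered 7, where 26.1% of all did; such a count cannot fall when an array is left out. Among the controls alone, with 1 array standing for the 10-series, 3 members passed: RTN2 was 1.12 higher in the 100-series, USV1 1.07 and XBP1 1.24 (limma adjusted p = 0.0131, 0.0146 and 0.0344). Of all probe sets 20.5% passed in that comparison, and 9.57% with higher values.

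**Figure D4:**
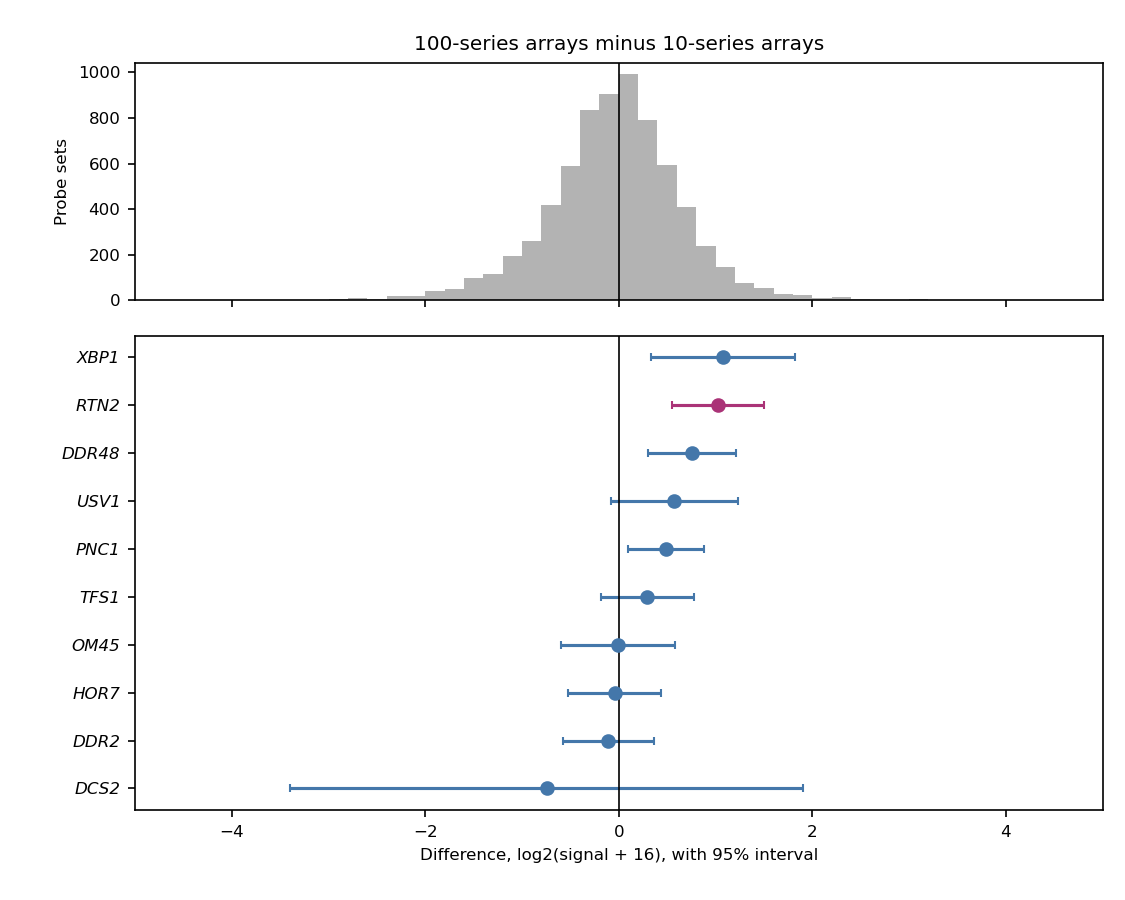
Difference between the 4 arrays of the 100-series and the 2 of the 10-series on the log2(signal + 16) scale, with treatment as a term. The upper panel is a histogram of the 6956 tested probe sets, and the lower panel gives each gene with its 95% interval; RTN2, in purple, passed the test, and DDR2, HOR7 and OM45 lie near 0.

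Other stress genes of the same programme were mostly higher in the 100-series too. Of 40 other stress genes tested, 31 were higher in the 100-series, where 48.8% of all probe sets were, and the median difference was 0.62. The test was passed by 14, all of them higher, where 5.18% of all probe sets passed with higher values. As this list and those below were chosen with earlier results of these data known, their counts are a description. CTT1, the cytosolic catalase (2.44, SE 0.406), ALD3, an aldehyde dehydrogenase (2.34, SE 0.344), CYC7, an isoform of cytochrome c (2.27, SE 0.182), and PHM7 (1.88, SE 0.415) had the largest values, with limma adjusted p between 0.00357 and 0.0353. CTT1 had signals of 6217.0, 7949.4 and 835.7 on the A100, B100 and 10 controls and 2755.0, 6388.4 and 1162.1 when treated. Over the 3 pairs 36 of the 40 had lower values with azinomycin B (median -0.26), where 43.5% of all probe sets did, and 0 passed by limma (1 at an unadjusted p under 0.05). After quantile normalization these were 33 of the 40, with a median of -0.10. By pair, 4, 8 and 17 of the 40 were higher as deposited in the A100, B100 and 10 pairs. Of all probe sets 51.6%, 56.7% and 57.9% were. After quantile normalization 8, 19 and 18 of the 40 were higher, with medians of -0.43, -0.01 and -0.02. The lower values thus lay mainly in the A100 pair under that scaling.

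Of 18 regulators of the programme, 13 were higher in the 100-series (median 0.43; 48.8% of all probe sets were higher). The test was passed by 1 of the 18, where 10.4% of all probe sets passed: the phosphatase PSR1 (0.85, SE 0.213, limma adjusted p = 0.0495), which is named because it is the only one. The kinases RIM15 (1.02, SE 0.348), HOG1 (0.93, SE 0.246) and SNF1 (0.92, SE 0.327) and the repressor SKO1 (0.89, SE 0.336) led by size, and none of these 4 passed. Over the 3 pairs 12 of these 18 had lower values with azinomycin B (median -0.14, where 43.5% of all did). By limma 0 passed (0 also at an unadjusted p under 0.05). The pairs differed: 15, 9 and 7 of the 18 were lower in the A100, B100 and 10 pairs. Their medians were -0.55, -0.02 and 0.14, and 48.2%, 43.2% and 42.1% of all probe sets were lower.

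Among 12 relatives and partners of the members, 6 were higher and 6 lower in the 100-series (median 0.01), and 2 passed, where 10.4% of all probe sets did. After scaling to a common median 9 were higher. CLN1, a G1 cyclin gene that Xbp1 is known to repress, was lower by a log2 difference of -2.01 (SE 0.361, limma adjusted p = 0.0229). Its signals were 24.5, 13.1 and 173.3 on the A100, B100 and 10 controls and 71.8, 28.9 and 168.4 when treated, and since they are low the size depends on the pseudocount, from -2.53 with 1 to -1.29 with 64. NMA1, which acts in the synthesis of NAD, was higher by 1.38 (SE 0.285, limma adjusted p = 0.0303). DCS1, the active relative of DCS2, was at 0.68 (SE 0.212) and the G1 cyclin gene CLN3 at -0.45 (SE 0.252), and neither passed.

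Genes of ribosome assembly differed between the series in the opposite direction. Of 64 listed genes on the array, 56 passed the filter on low signals. All 64 had lower values in the 100-series (median -1.37), where 51.2% of all tested probe sets did, and 63 of 64 after either other scaling. The test was passed by 27 of the 56, where 5.18% of all probe sets passed with lower values. A gene can enter these 56 through the 10-series arrays, where the list is high. The count of 27 is therefore not read as an excess over that share or over other lists. The 4 genes named by size are NSR1, a nucleolar protein gene, RPF2, KRR1 and NIP7, the last also numbered within 7600 to 8500. RPF2 had signals from 62.0 to 263.9 in the 100-series and 788.8 and 993.5 in the 10-series (log2 difference -2.86). NSR1, KRR1 and NIP7 each lay under the pseudocount of 16 on 3 arrays of the 100-series, where their lowest signals were 2.4, 3.6 and 6.6, against at least 590.9, 177.2 and 124.2 in the 10-series. The size of their differences is therefore set in part by the pseudocount, as for NSR1 from -6.26 with 1 to -3.11 with 64. In the A100 pair, where all 10 stress genes were lower on treatment, 58 of the 64 were higher (median 1.02; 51.6% of all). In the B100 pair 23 were higher (median -0.09; 56.7% of all) and in the 10 pair 47 (median 0.19; 57.9% of all). The part of this shift, or of what goes with it, in the values of the stress genes was not tested.

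**Figure D5:**
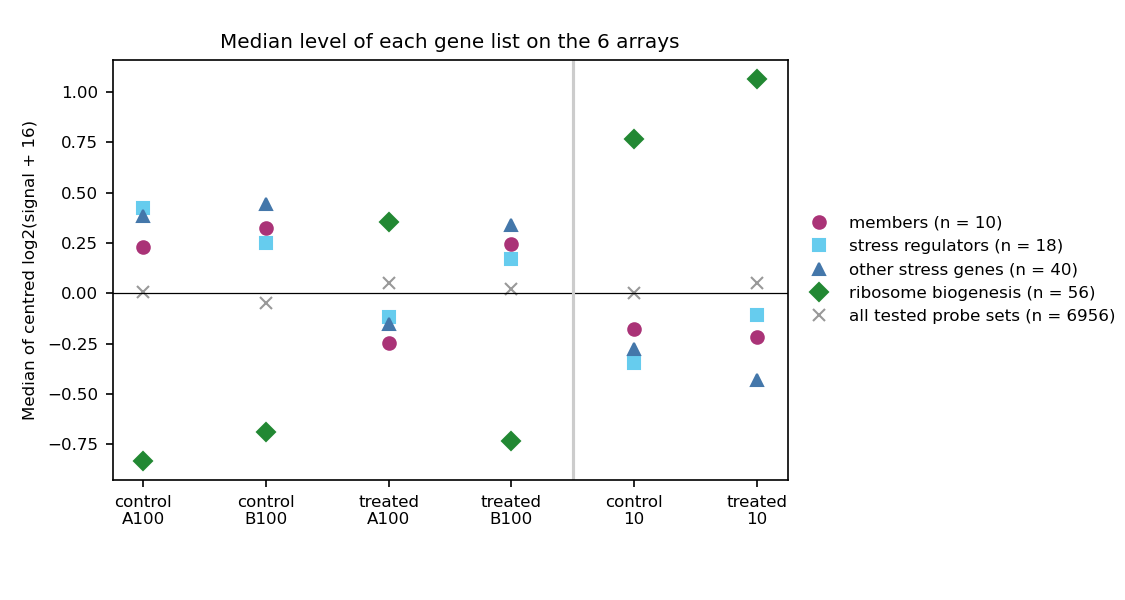
Median over each gene list of the log2(signal + 16) value centred on the gene's mean over the 6 arrays, with 1 symbol per list on each array and the 10-series to the right of the line. The members range from -0.25 on the treated A100 array to 0.32 on the B100 control, and ribosome biogenesis genes run opposite, from -0.83 on the A100 control to 1.064 on the treated array of the 10-series.

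Among 585 probe sets of other genes that spanned at least 2 log2 units, those most like the mean profile of the members over the 6 arrays were for HBT1 (Pearson r = 0.998), the chaperone HSP82 (0.985), SPS100 (0.965), SDH9 (0.965), CIP1 (0.955) and the S-adenosylmethionine transporter SAM3 (0.938). Of the members, on the probe sets that stand for them, only DCS2 spanned that much, with the highest signal 26.4 times the lowest. Among the others the largest ratio was 3.07, for XBP1, so genes with a range like theirs were not ranked. The low DCS2 value on the treated A100 array weighs on this mean, and the probe sets of HSP82, CIP1 and SAM3 are also numbered within 7600 to 8500. HBT1 had 10467.5, 11176.6 and 4051.0 on the A100, B100 and 10 controls and 2294.3, 8460.1 and 3911.1 when treated. Without DCS2 in the mean, a choice made after the values were seen, the 6 most like were FAT3, YPR127W, the sterol acyltransferase gene ARE2, YDL218W, ALD3 and the transketolase gene TKL2 (r from 0.970 to 0.995), and 0 of them were among the first 6.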

How the data were processed

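The authors deposited linear intensity values, a MAS5 signal for each probe set, per the submitters' processing notes. Its version and settings were not given in the sources used here. On every array the 2% trimmed mean was between 500.32 and 500.40, so the values were used as deposited. The 60 control probe sets and the 25% of the others with the lowest mean log2 value were left out, which left 6956. limma 3.58.1 in R 4.3.3 fitted log2(signal + 16) on all 6 arrays with a variance trend and two-sided tests. The models were 1 mean per group (each dose against the 3 controls; the single array at 10 µg/ml is assumed to vary like the rest), treatment and series as terms (treatment over the 3 pairs; 100-series against 10-series), and control and treated means of each series (difference of the treatment effects). The number of arrays limits the precision. Names come from the platform annotation, and of several probe sets for 1 gene the brightest on average stood for it. Probe sets with several names (282 of those tested) or none (1004) name no gene here. Genes to be named were the members, up to 4 genes of each list with the largest difference between the series, and the 6 most like in pattern. The members and lists were chosen with earlier results of these data known. The models were tested on simulated data with 200 changed probe sets. Alternatives were 2 normalizations, pseudocounts of 1 and 64, other filters, no variance trend, a threshold of 0.10, leaving out arrays, controls of the same series, and the label as a block. Promoter and protein sequences were not analysed here.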

Additional observations from a re-analysis of the deposited data

How the results depend on the processing

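Under the alternatives the sign of a member's difference turned in 24 values at 100 µg/ml, 9 over the 3 pairs and 15 between the series, none of them of a called gene; the cause was not tested. At 100 µg/ml the sign turned with the controls of the same series, and equally with the label as a replicate block, for DDR48 (-0.01), RTN2 (-0.19), XBP1 (-0.27), PNC1 (-0.07) and USV1 (-0.29). It also turned after scaling to a common median for XBP1 (-0.006), PNC1 (-0.083) and USV1 (-0.082), and after quantile normalization for TFS1 (0.019). Over the 3 pairs the sign turned for PNC1 after quantile normalization (0.10), for USV1 after median scaling (-0.14) and for DDR48 on its other probe set (0.20). Median scaling moved the median of all probe sets by -0.14 at 100 µg/ml and -0.16 over the 3 pairs, and the members' median in the A100 pair to -0.70. Between the series the sign turned after median scaling for HOR7 (0.059) and OM45 (0.10), and among the controls alone for DDR2 (0.077), HOR7 (0.12), DCS2 (0.52) and OM45 (0.041).

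With 1 array left out at a time, values at 100 µg/ml ranged from -4.32 to 0.053 for DCS2, -0.42 to 0.092 for TFS1, -0.19 to 0.39 for RTN2, -0.28 to 0.56 for XBP1, -0.29 to 0.30 for USV1, -0.01 to 0.28 for DDR48 and -0.07 to 0.17 for PNC1. Over the 3 pairs they ranged from -0.38 to 0.10 for XBP1, -2.47 to 0.029 for DCS2, -0.23 to 0.008 for RTN2 and -0.29 to 0.27 for USV1. Between the series they ranged from -0.21 to 0.12 for HOR7, -2.01 to 0.52 for DCS2, -0.17 to 0.17 for OM45 and -0.29 to 0.077 for DDR2. Counts of probe sets past the threshold ranged from 0 to 4 at 10 µg/ml (4 without the 10-series control), 0 to 1 over the 3 pairs, 0 to 233 for the difference of the treatment effects (233 without the treated B100 array) and 0 to 2033 between the series. The series count of 720 was 20 without the A100 control, 59 without the B100 control, 231 without the treated B100 array, 5 without the 10-series control and 0 without its treated array. It was 479 with no filter, 1439 at a threshold of 0.10 and 1423 among the controls alone. Leaving out arrays aside, RTN2 passed under every alternative run for the series. At a threshold of 0.10 XBP1 passed as well, and so did DDR48 on its first probe set. On that probe set DDR48 also passed after quantile normalization, with a pseudocount of 64 and with the lowest 50% left out. It passed too, in a setting chosen after seeing the data, without the probe sets numbered 7600 to 8500.

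Members lower in every pair numbered 5, against 0 after quantile normalization and 7 after scaling to a common median. Members above in the whole 100-series numbered 7 without the treated A100 array, against 4. These settings, and the list counts under other scalings, were chosen after seeing the data. The label as a replicate block moved no count of calls, at 0 in each treatment comparison. Over the 3 pairs it lowered the SE of DDR2 (0.187 to 0.144) and HOR7 (0.191 to 0.144). It raised that of DDR48, RTN2, XBP1 and USV1. Treated and control arrays of the A100 and B100 labels did not deviate together (r = -0.071 between their A100 minus B100 differences). The labels were therefore not taken as pairs in the tests. This check rests on the treated A100 array, which was least like its control, so it cannot show that pairing is absent.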
